A study of Mus musculus with 16 samples.

Results

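The 38 Hox genes considered here are homeobox transcription factor genes of the 4 mouse Hox clusters, HoxA on chromosome 6, HoxB on chromosome 11, HoxC on chromosome 15 and HoxD on chromosome 2. Accessible regions were assigned to a member when the nearest protein-coding transcription start site (TSS) in GENCODE M21 on mm10 lay within 100 kb of the summit and belonged to it. In all, 83 of 80585 consensus accessible regions were Hox regions by this rule, at 31 of the 38 members. The other 7 members, Hoxa2, Hoxa6, Hoxa9, Hoxb5, Hoxb6, Hoxc9 and Hoxd8, had no consensus region of their own. The members were chosen by name and position and not by a measured value, though with earlier results of these data known.

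Chromatin accessibility was profiled by ATAC-seq, in which a transposase inserts adapters into open DNA, during conversion of mouse embryonic stem cells (ESCs) toward anterior neural progenitor cells. The 16 libraries form 8 groups of 2 cell lines. Days 2 and 3 were each sampled for cells wild type (WT), mutant (MUT) and knockout (KO) for Tet1, and day 3 also for CHIR-treated WT and XAV-treated KO cells. Every line derives from B6129S6F1 mice of the Tet1 tm1Koh strain. CHIR99021 (3 µM) is a GSK3 inhibitor that activates Wnt signalling, and XAV939 (5 µM) inhibits it, each added from day 2. The MUT lines CM59 and CM69 were made by CRISPR homology-directed repair from the WT line WT7 and carry catalytically inactive Tet1. KO1 and KO15 were the KO lines at both days and under XAV. CHIR-treated libraries came from lines WT7 and WT34 and the untreated WT libraries from WT70 and WT72, so treatment and line cannot be told apart in that comparison, and the labels give no group with vehicle alone.

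Hox genes give cells their position along the head-to-tail axis. Genes of low paralog number lie at one end of each cluster and act in the hindbrain and neck, and genes of high paralog number lie at the other end and act in the trunk and tail. In pluripotent cells the clusters are held by Polycomb repressors, and during axis elongation they open progressively under Wnt signals, CDX factors and retinoic acid. The forebrain-like cells that this protocol aims for lie anterior to the domains of Hox expression.

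Because the results turn on a few short regions, the 300 bases around the summits of 5 of them are given here, plus strand, 5′ to 3′, from GRCm38.p6, the assembly behind mm10. The first 4 were open in both CHIR libraries and in none of the other 14, and they were chosen for that and for the size of their difference from WT. The Hoxd1 sequence was open in both libraries of MUT, KO and CHIR-treated WT on day 3 and in no other library. Capitals mark matches, on either strand, to a TCF/LEF motif (CTTTGAT), a CDX motif (TTTATNG) or a CTCF core (AGNGGGC), by letters alone.
Hoxb1, chr11:96370371-96370670: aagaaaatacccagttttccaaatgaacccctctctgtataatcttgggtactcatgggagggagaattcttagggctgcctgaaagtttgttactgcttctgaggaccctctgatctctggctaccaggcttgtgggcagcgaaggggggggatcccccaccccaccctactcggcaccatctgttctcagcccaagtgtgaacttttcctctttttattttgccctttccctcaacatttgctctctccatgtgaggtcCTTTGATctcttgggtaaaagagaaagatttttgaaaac
Hoxc4, chr15:103042298-103042597: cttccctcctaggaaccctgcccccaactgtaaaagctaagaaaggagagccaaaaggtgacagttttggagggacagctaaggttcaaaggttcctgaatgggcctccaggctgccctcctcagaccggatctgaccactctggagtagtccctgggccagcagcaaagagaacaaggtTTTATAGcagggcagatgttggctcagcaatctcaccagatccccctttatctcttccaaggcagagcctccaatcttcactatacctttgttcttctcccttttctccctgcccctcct
Hoxd4, chr2:74721085-74721384: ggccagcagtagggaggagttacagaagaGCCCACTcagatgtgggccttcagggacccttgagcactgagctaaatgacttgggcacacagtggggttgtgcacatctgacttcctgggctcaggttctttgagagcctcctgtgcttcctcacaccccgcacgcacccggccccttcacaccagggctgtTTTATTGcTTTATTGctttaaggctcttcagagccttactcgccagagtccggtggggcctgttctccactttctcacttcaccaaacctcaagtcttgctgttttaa
Hoxd3, chr2:74740855-74741154: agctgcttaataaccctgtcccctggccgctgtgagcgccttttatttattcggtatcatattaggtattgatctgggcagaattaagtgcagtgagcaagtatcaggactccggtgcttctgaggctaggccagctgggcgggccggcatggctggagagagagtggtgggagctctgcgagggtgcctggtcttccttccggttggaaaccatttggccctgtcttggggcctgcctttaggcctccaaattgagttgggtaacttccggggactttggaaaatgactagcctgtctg
Hoxd1, chr2:74760162-74760461: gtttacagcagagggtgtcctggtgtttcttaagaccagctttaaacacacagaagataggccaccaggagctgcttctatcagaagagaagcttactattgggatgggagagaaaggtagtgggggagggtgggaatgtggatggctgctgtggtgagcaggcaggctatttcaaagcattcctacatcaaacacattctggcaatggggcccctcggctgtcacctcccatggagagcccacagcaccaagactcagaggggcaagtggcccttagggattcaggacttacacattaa

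The Hoxb1 sequence held 1 TCF/LEF match, the Hoxc4 sequence 1 CDX match, and the Hoxd4 sequence 2 adjacent CDX matches and 1 CTCF core on the minus strand. The Hoxd3 and Hoxd1 sequences held none of these letters. Over all 83 Hox regions, windows of the same length held TCF/LEF in 3 (3.61%), CDX in 5 (6.02%) and the CTCF core in 25 (30.1%). Among 80578 consensus regions with a sequence, the shares were 5.01%, 6.92% and 31.4%. A match is a description of the letters and does not show that a factor was bound.

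A region was called open in a library when it overlapped by at least 1 bp one of the 50000 intervals with the highest −log10 p in that library. A region entered the consensus when at least 2 libraries held it. Its strength was the fold enrichment at the summit over the local background, as deposited. In bulk cells, a lower value from fewer cells with an open site cannot be told apart from lower accessibility per cell. With 50000 intervals kept in each library, the rule itself held the share of open consensus regions within a narrow range (61.4% to 65.1%). The −log10 p at the last kept interval ran from 6.84 in KO day 3 replicate 2 to 21.8 in KO day 2 replicate 1. Promoters of epiblast and early neural markers were open for 4 to 6 of 6 genes per library, those of streak and posterior markers for 2 to 5 of 5, and those of fibroblast markers for 5 to 6 of 10. Among the fibroblast genes, promoters of Col1a1, Col1a2, Thy1 and Dcn were open in all 16 libraries, of Twist2 in 13 and of Pdgfrb in 10, and of Col3a1, Lum, Postn and Prrx1 in 0. The part of other cell types in the results was not tested.

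The Hox regions were richer in CpG and closer to promoters than consensus regions at large. The median Hox window held 15 CpG against 5 over all regions, with a GC content of 60% against 53.3%. In all, 29 Hox regions (34.9%) lay within 1 kb of a TSS, against 23.8% of all regions, and 54 lay farther away. By annotation, 37 were intergenic, 16 intronic, 10 in a coding exon, 10 in a UTR, 7 in an exon and 3 in an intron of a non-coding gene. HoxB held 30 regions, HoxC 24, HoxD 19 and HoxA 10. The members with the most regions were Hoxb1, Hoxc4 and Hoxd3, with 8 each, and Hoxb9 with 6.

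In openness, Hox regions were split between a constitutive set, open in every library, and a larger set called open in only some. A region not called open could still hold a peak, ranked below the kept intervals. Of all pairs of a Hox region and a library, 93.4% had a peak. The Hoxc8 region 16 bp upstream of its TSS, for example, was called open in 5 libraries but had a peak in all 16 (3.19 to 5.63). In total, 19 regions (22.9%) at 15 members were open in all 16 libraries, against 33.6% of all consensus regions. They were spread over both ends of the clusters, with 9 of 41 regions at paralogs 1 to 4, 2 of 14 at paralogs 5 to 8 and 8 of 28 at paralogs 9 to 13. By cluster, HoxA held 1, and HoxB, HoxC and HoxD held 6 each. A further 19 regions were open in no day 2 library and 3 in no day 3 library. These counts do not measure a change between the days, since day 2 had fewer libraries and the CHIR libraries were of day 3 alone. The 19 include the 7 regions that were open in both CHIR libraries and in no other.

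**Figure D1:**
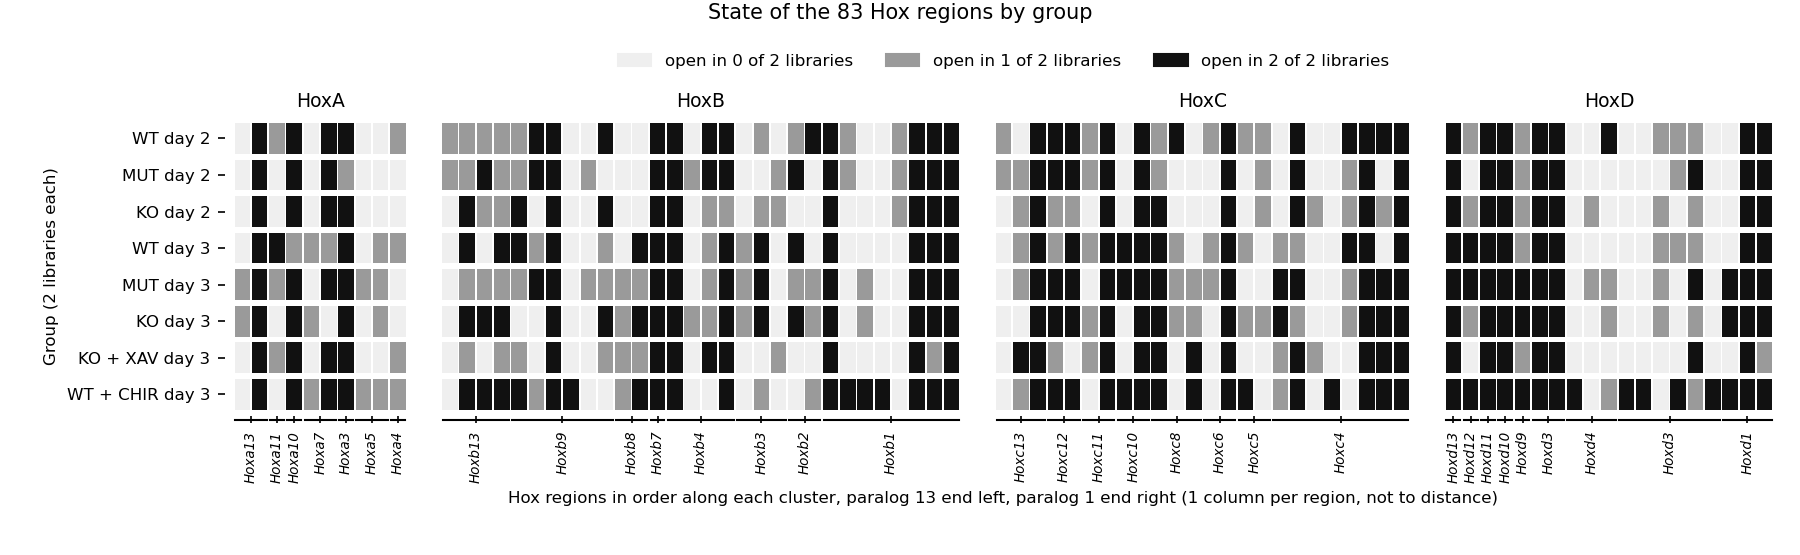
Each column is 1 of the 83 Hox regions, in order along its cluster with the paralog 13 end on the left, and each row is a group, with the shade giving in how many of its 2 libraries the region was open. In all, 19 columns are dark in every group, and 7 are dark in the CHIR row alone, which are in the set because both CHIR libraries held them.

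The constitutive set included promoters at the posterior end of HoxA, HoxC and HoxD. Hoxa13 (summit 49 bp upstream of the TSS) ranged from 4.34 to 7.41 in fold enrichment over the 16 libraries, with a median of 5.60. Hoxc13 (237 bp upstream) ranged from 6.01 to 8.70, and Hoxd13 (318 bp upstream) from 4.89 to 7.72. As paralog 13 genes they act at the tail end of the axis, and Hoxa13 and Hoxd13 also pattern the distal limb. The posterior set also held Hoxd11 (489 bp upstream, 3.84 to 5.66), Hoxd10 (149 bp upstream, 3.99 to 7.38), Hoxc10 (209 bp upstream, 4.96 to 7.17), Hoxc11 (1519 bp downstream, 4.18 to 6.09) and a Hoxb9 region 9759 bp upstream, in an exon of the non-coding gene Gm53 (5.33 to 8.41). Hoxb13 differed by state from the other paralog 13 genes, since its region 56 bp upstream was open in 11 of 16 libraries. All 16 had a peak there, at 3.96 to 5.86, which overlaps the ranges at Hoxa13 and Hoxd13.

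At the anterior end, the promoter of Hoxd1, a paralog 1 gene, was open in all 16 libraries with a median fold enrichment of 8.47 (5.73 to 10.6). The highest median among the 19 was 9.97, at an intergenic region 34902 bp downstream of the Hoxc4 TSS, which ranged from 6.13 to 13.7. Hoxc4, which acts at the level of the neck, had another constitutive region 51590 bp downstream (5.86 to 10.9). Hoxb1, the hindbrain segment gene, had 3 of them, at 1864 bp upstream (3.99 to 9.10) and at 31755 bp (5.46 to 10.2) and 42181 bp downstream (6.43 to 10.9). Hoxb4 was constitutively open 6500 bp upstream (7.39 to 10.8). Hoxd3 was constitutively open 255 bp and 4067 bp downstream of an alternative start site. Those Hoxd3 regions lay between the Hoxd9 region and the Hoxd4 regions, not at the anterior end itself. The mid-cluster genes Hoxb7 and Hoxc6 held 1 each.

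The constitutive Hox regions were weaker than constitutive regions at large. Their median fold enrichment per library ran from 5.33 (KO day 3 replicate 2) to 7.77 (WT day 2 replicate 2), and that of all constitutive regions from 7.31 to 9.50. The other 64 Hox regions had medians of 3.91 to 5.03 over the regions with a peak in that library. No test was run on these levels, since openness chose the sets.

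The number of open Hox regions overlapped between CHIR-treated and other cells once the regions that CHIR itself brought into the set were left out. In replicates 1 and 2, of 83 regions, 41 and 53 were open in WT, 38 and 44 in MUT and 37 and 40 in KO on day 2. On day 3 the numbers were 41 and 50 in WT, 46 and 55 in MUT, 44 and 52 in KO, 36 and 40 in XAV-treated KO and 55 and 59 in CHIR-treated WT. However, 8 of the 83 regions were open in fewer than 2 libraries other than CHIR and so reached the minimum of 2 libraries only through CHIR. Among the other 75 regions, 48 and 51 were open with CHIR and 36 to 54 in the other 14 libraries. Replicate 2 had more than replicate 1 in all 8 groups. The smallest two-sided p that an exact permutation test of 2 libraries against 2 allows is 0.333, so these counts carry no test.

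**Figure D2:**
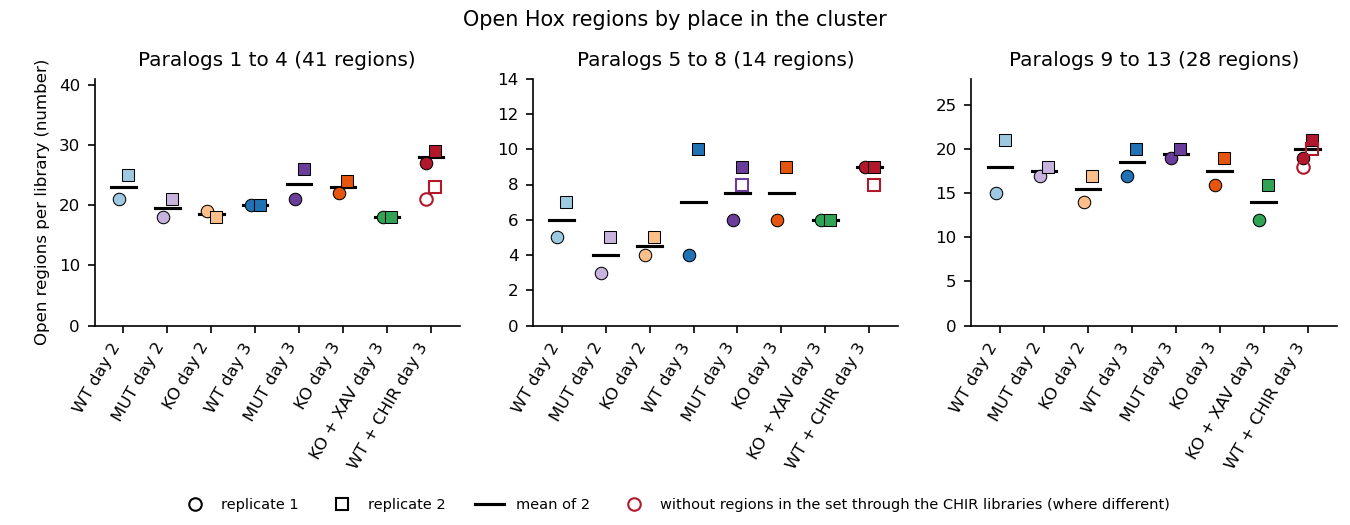
The y axis gives the number of open Hox regions per library in each of 3 paralog classes, with circles for replicate 1, squares for replicate 2, bars for the mean, and hollow symbols for the number without the 8 regions that are in the set through CHIR. At paralogs 1 to 4 the CHIR libraries are at 27 and 29 with those regions and at 21 and 23 without them, and the other 14 span 18 to 26.

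Of those 8 regions, 6 lay at paralogs 1 to 4. In that class, 27 and 29 of 41 regions were open with CHIR, and 21 and 23 of 35 without the 6, against 20 and 20 in WT, 21 and 26 in MUT, 22 and 24 in KO and 18 and 18 in XAV-treated KO on day 3. The CHIR libraries thus lay within the range of the others there. At paralogs 9 to 13, CHIR libraries had 19 and 21 of 28 open, and WT libraries 17 and 20. In HoxD, 16 of 19 regions were open in each CHIR library and 12 of 15 without the regions brought in by CHIR, against 7 to 13 in the other 14 libraries.

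The first comparison asked how Wnt activation changed Hox accessibility in WT cells. With CHIR, 13 Hox regions (15.7%) were gained, meaning open in both CHIR libraries and in neither untreated WT library on day 3. Among all consensus regions 11.0% were gained. Another 3 (3.61%) were lost, against 9.02% of all regions. Of the 13 gained, 10 lay at paralogs 1 to 4, 1 at paralogs 5 to 8 and 2 at paralogs 9 to 13, but 7 of the 13, with 6 of the 10, were in the set only through CHIR and could not have been other than gained. Among regions open in at least 2 other libraries, 6 of 75 Hox regions were gained, against 3.07% of all such regions, and 3 were lost, against 9.97%. The 6 lay at paralogs 1 to 4 in 4 of 35 regions, at paralogs 5 to 8 in 1 of 13 and at paralogs 9 to 13 in 1 of 27. No test of a difference between classes or clusters was run.

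By limma on log2 fold enrichment, with Benjamini-Hochberg adjustment over all regions, 5 Hox regions were higher with CHIR and 2 lower. Over all regions 9.48% were higher and 14.0% lower. Of the 5, 4 were in the set only through CHIR, so that the test on them is no evidence of a difference, and their values are given below as a description with no p. Among the 75 regions open in at least 2 other libraries, 1 was higher and 2 lower, against 3.37% and 15.5% of all such regions. The strength of Hox regions was set side by side between paralog classes by medians alone, with no test. The median log2 difference was 0.11 at paralogs 1 to 4, 0.10 at paralogs 5 to 8 and 0.12 at paralogs 9 to 13, with 22 of 41, 9 of 14 and 18 of 28 regions above 0. Without the 8 regions the medians were -0.03, 0.09 and 0.08. Over all 83 Hox regions the median was 0.11 and over all consensus regions -0.03.

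Hoxc4 held the region with the largest of these values. The region 8053 bp downstream of its TSS, in intergenic DNA between Hoxc4 and the far constitutive sites, had a fold enrichment of 8.88 and 10.9 in the CHIR libraries. Weak peaks stood in both KO day 3 libraries (2.90 and 2.98) and in XAV-treated KO replicate 2 (2.84), and the other 11 libraries had no peak there. The MUT libraries of both days were among those 11, and treatment and line cannot be told apart at this region either. The log2 difference from WT was 3.32 (SE 0.37, n = 2 per group).

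Hoxd4, which acts in the posterior hindbrain and neck, had a region 743 bp upstream of one of its start sites, in an intron shared by Hoxd3 and Hoxd4 transcripts. It reached 7.27 and 7.97 with CHIR, and the other 14 libraries had no peak there at any rank. The log2 difference from WT was 2.95 (SE 0.17). This is the sequence with the pair of CDX matches.

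Hoxb1 is switched on early in the posterior embryo and later marks a single hindbrain segment. A region 4769 bp downstream of its TSS had 4.11 and 3.97 with CHIR, and again the other 14 libraries had no peak there. The log2 difference was 2.03 (SE 0.16). This is the sequence with the TCF/LEF match.

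Hoxd3, a neighbour of Hoxd4 at the anterior end of HoxD, had a region 1386 bp downstream of one of its start sites, in an intron of Hoxd3 and of the overlapping gene Gm28230. Its values were 4.58 and 5.03 with CHIR, against 2.65 and 3.60 in WT on day 2, 3.06 in KO day 2 replicate 1, 2.62 in KO day 3 replicate 1 and 2.73 and 2.70 with XAV. The other 8 libraries had no peak. The log2 difference from WT day 3 was 2.28 (SE 0.42). For regions with no peak in WT, the size of a difference depends on the value of 1 that was set in place of a missing peak. Where libraries had no peak, the SE also rests in part on that set value. With 2 in its place, the differences were 2.32 at Hoxc4, 1.95 at Hoxd4, 1.28 at Hoxd3 and 1.03 at Hoxb1.

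**Figure D3:**
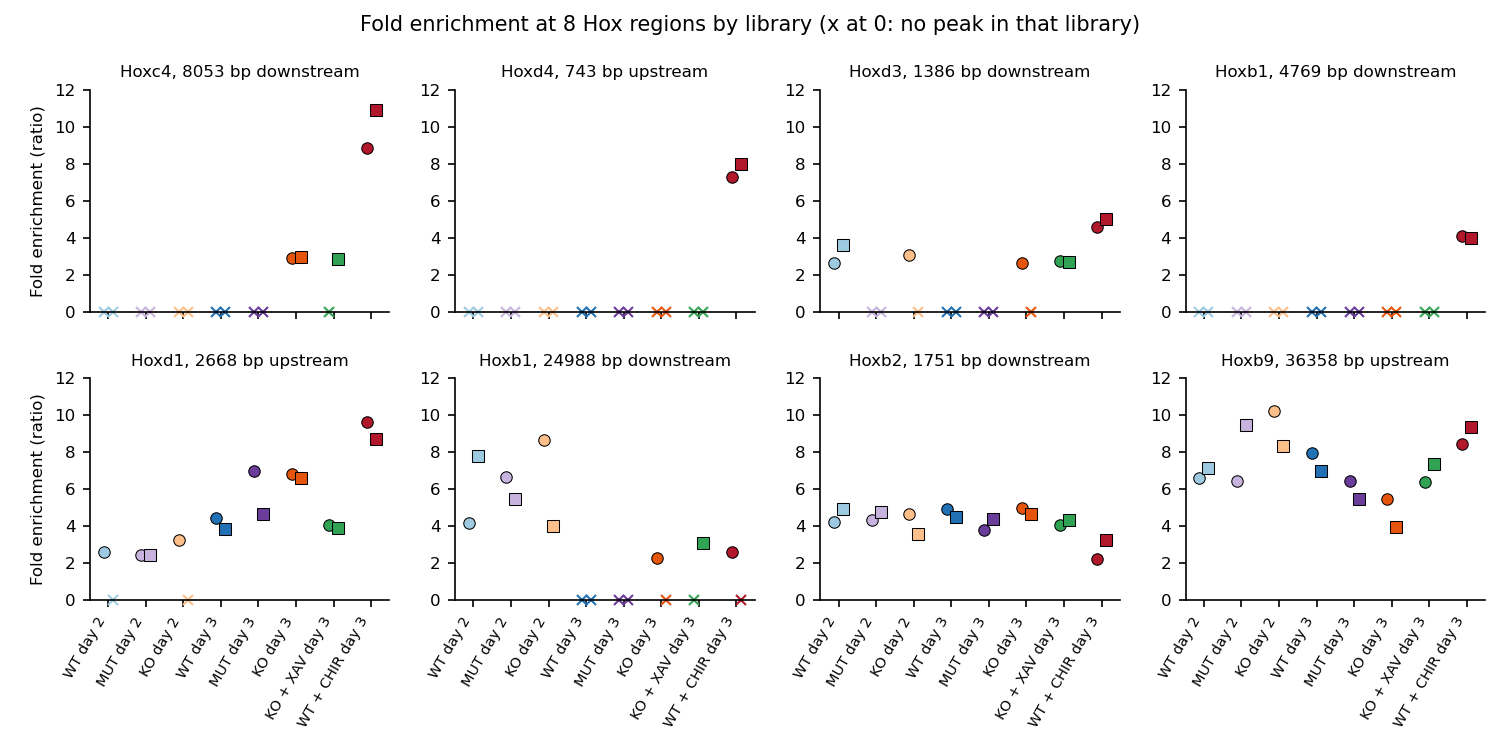
The y axis gives fold enrichment, a ratio to local background, at 8 Hox regions in each of the 16 libraries, with circles for replicate 1, squares for replicate 2 and a cross at 0 where that library had no peak. At Hoxc4, Hoxd4 and Hoxb1 in the upper row the other libraries lie at 2.98 or below or have no peak, while the CHIR libraries reach 10.9, 7.97 and 4.11.

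The higher region that was in the set without CHIR was at Hoxc8, a thoracic gene, 8799 bp downstream of its TSS in an intron of Hoxc5 and Hoxc6. It was 5.74 and 7.72 with CHIR and 4.10 and 3.19 in WT, a log2 difference of 0.90 (SE 0.23, limma adjusted p = 0.0155). Without WT day 3 replicate 2 the adjusted p was 0.0854, and without CHIR replicate 2 it was 0.109.

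The 2 lower regions were at Hoxc13 and Hoxb2. The Hoxc13 region, 48113 bp upstream, had no peak with CHIR and 4.50 and 2.33 in WT, a log2 difference of -1.68 (SE 0.36, limma adjusted p = 0.00452). That call was lost with 2 in place of a missing peak (-0.68, adjusted p = 0.15) and without WT day 3 replicate 1 (adjusted p = 0.0506). Hoxb2, a hindbrain gene, fell at a coding exon region 1751 bp downstream of its TSS, from 4.95 and 4.47 in WT to 2.24 and 3.23 with CHIR, a log2 difference of -0.79 (SE 0.21, limma adjusted p = 0.0184). The adjusted p at Hoxb2 was 0.0662 without WT day 3 replicate 1, 0.0755 without replicate 2 and 0.132 without CHIR replicate 1. The Hoxb2 region was also lost by state, as were a Hoxc4 region 26419 bp downstream (log2 difference -0.53, adjusted p = 0.0687) and a Hoxa11 region 7283 bp upstream (-0.29, adjusted p = 0.477).

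A further 8 regions were gained, 3 of them in the set only through CHIR, and none passed limma. At Hoxb1 they stood 118 bp upstream (5.11 and 5.33 with CHIR, 3.49 and 3.43 in WT) and 3345 bp downstream (4.21 and 3.95, against 4.15 and 2.86). At Hoxd3, in the set through CHIR, they stood 17 bp upstream (3.98 and 4.63, against no peak and 2.95) and 7445 bp downstream, within introns of the non-coding genes Haglr and Gm14424 (4.42 and 5.02, against 3.26 and 3.38). At Hoxb9, 6593 bp upstream and likewise in the set through CHIR, the values were 6.16 and 4.87 with CHIR and 3.46 and no peak in WT. Each of these 5 sites had a peak in at least 1 WT library on day 3, below the rank of 50000. The remaining gained regions were at Hoxb13 (4015 bp upstream), Hoxc4 (43455 bp downstream) and Hoxd1 (2668 bp upstream).

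Openness in both CHIR libraries and nowhere else held for 7 Hox regions (8.43%), against 6.79% of all consensus regions. They lay at Hoxb9, Hoxb1, Hoxc4, Hoxd4 and, for 3 of them, Hoxd3. Their windows held a median of 3 CpG, as did the 5475 such regions of the whole set, against 16 CpG in the 19 constitutive Hox regions. A TCF/LEF match was present in 1 of the 7 and a CDX match in 2, while the shares among all 5475 were 15.8% and 7.38%.

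Against the other 4 groups of day 3 together, a comparison that shares all CHIR and WT libraries with the first, 8 Hox regions were gained (9.64%) and 0 lost. The shares over all regions were 7.07% and 2.52%. The 8 were the 7 named above and the Hoxb1 region 118 bp upstream, which was open in 1 WT and 1 MUT library on day 2. Among the 75 regions open in at least 2 other libraries, that Hoxb1 region was the 1 gained and 0 were lost, against 0.140% and 2.78% of all such regions. By limma 15 Hox regions were higher and 3 lower, against 11.3% and 18.2% of all regions. Among the 75 regions open in at least 2 other libraries, 9 were higher and 3 lower, against 4.41% and 20.1% of all such regions. The 9 lay at paralogs 1 to 4 in 3 of 35 regions, at paralogs 5 to 8 in 2 of 13 and at paralogs 9 to 13 in 4 of 27. The median log2 difference over the 83 regions was -0.02 at paralogs 1 to 4, 0.11 at paralogs 5 to 8 and 0.10 at paralogs 9 to 13. Without CHIR replicate 1, or without CHIR replicate 2, the count of changed regions fell from 18 to 8. Of the 9, the largest differences were at Hoxb1 118 bp upstream (0.94, SE 0.28, limma adjusted p = 0.0267) and Hoxc8 8799 bp downstream (0.72, SE 0.19, limma adjusted p = 0.012). The Hoxb1 value rests in part on KO day 3, with 2.65 and a missing peak set to 1. Hoxb13 23496 bp upstream (0.69), also among the 9, had no peak in either KO library on day 3. Against WT alone, the limma adjusted p was 0.266 at Hoxb1 and 0.272 at Hoxb13.

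**Figure D4:**
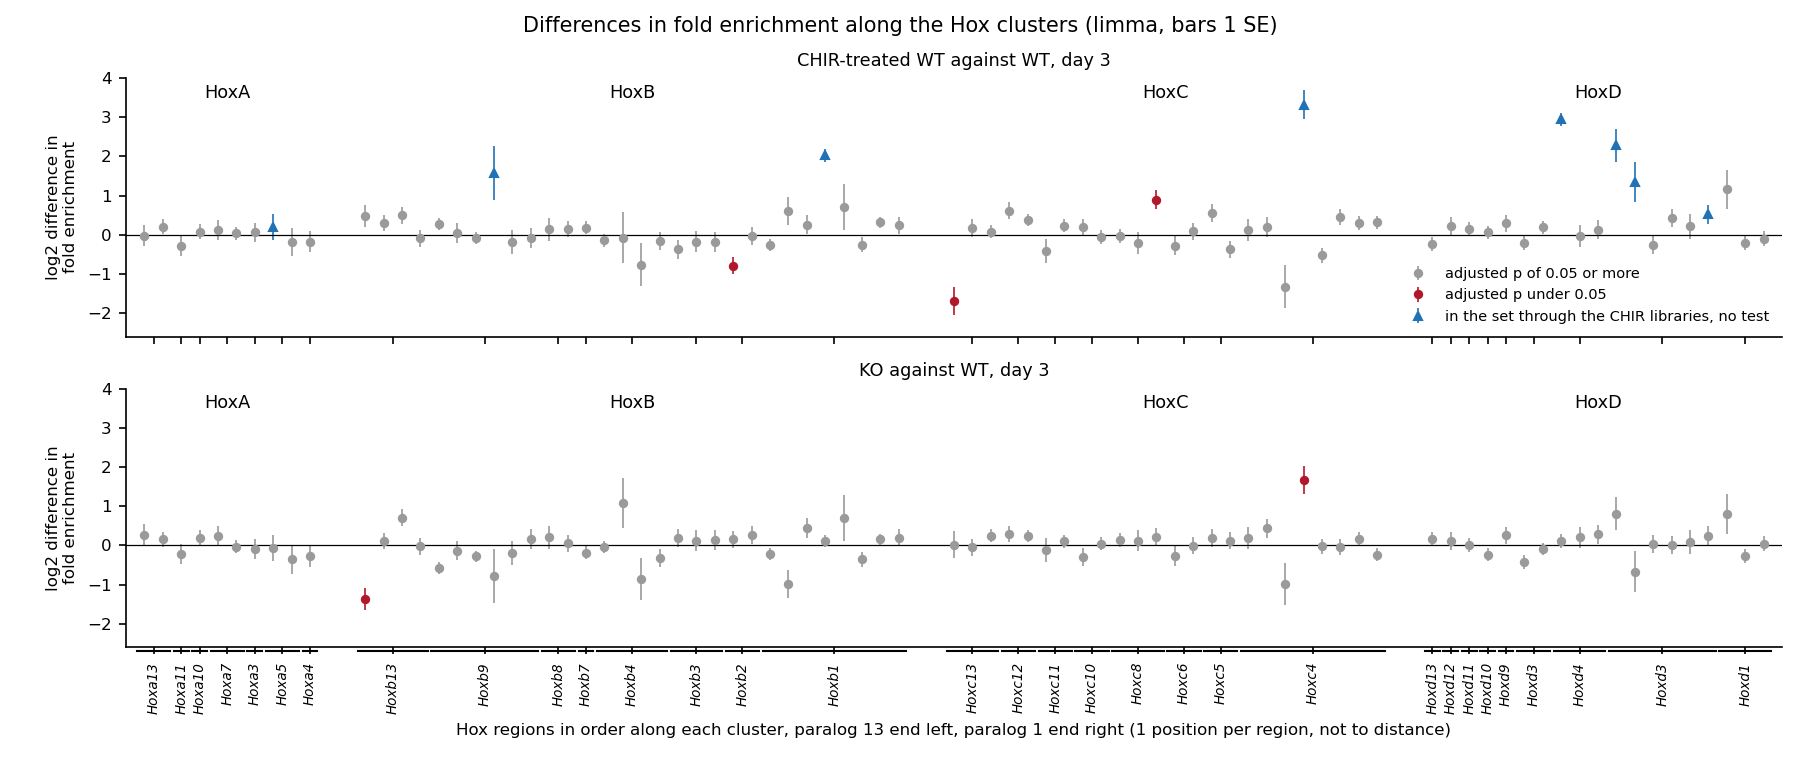
The y axis gives the log2 difference in fold enrichment with bars of 1 SE from limma, for CHIR-treated WT (upper panel) and KO (lower panel) against the same WT libraries on day 3, along the clusters. Red marks an adjusted p under 0.05, and blue triangles in the upper panel are the 8 regions in the set only through the CHIR libraries, which are not read as tested. Where libraries had no peak, the bars rest in part on the value of 1 set there and not on spread between libraries. Outside those, 1 point in the upper panel is red above 0 (Hoxc8) and 2 below (Hoxb2 and Hoxc13).

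The next comparison asked whether loss of TET1 changed Hox accessibility on day 3, against the same WT libraries. In KO cells, 3 Hox regions (3.61%) were gained and 3 (3.61%) lost, against 3.92% and 4.22% of all regions. By limma 1 was higher and 1 lower, against 1.83% and 1.69% of all regions, with 2 and 4 at an unadjusted p under 0.05. Neither share stood above its background.

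The higher region was the Hoxc4 region 8053 bp downstream, where both KO libraries had a weak peak (2.90 and 2.98) and WT none. The log2 difference was 1.67 (SE 0.37, limma adjusted p = 0.0279). With 2 in place of a missing peak it was 0.67 (adjusted p = 0.0512), and the call was lost without either WT library or KO replicate 2 (adjusted p of 0.0911 to 0.142). The lower region was 23496 bp upstream of Hoxb13, with no peak in KO and 3.04 and 2.56 in WT (log2 difference -1.37, SE 0.28, limma adjusted p = 0.02). That call was lost with the value of 2 (-0.37, adjusted p = 0.497) and without WT replicate 1, WT replicate 2 or KO replicate 1 (adjusted p of 0.057 to 0.0982).

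Besides a Hoxc4 region 43455 bp downstream, 1 region at Hoxd1 was gained against WT in KO, in MUT and with CHIR alike. The Hoxd1 region lies 2668 bp upstream of the TSS, in an intron of the non-coding gene Haglr. On day 3 its fold enrichment was 4.46 and 3.85 in WT, 6.96 and 4.65 in MUT, 6.84 and 6.60 in KO, 9.61 and 8.70 with CHIR and 4.07 and 3.89 in XAV-treated KO. On day 2 it was 2.60 and no peak in WT, 2.41 and 2.42 in MUT, and 3.24 and no peak in KO. Every day 3 value thus lay above every day 2 value, and both WT and both XAV libraries lay below the MUT, KO and CHIR libraries. The region was singled out by its state in these groups, so this order in part restates that choice. The margin was small between MUT replicate 2 (4.65) and WT replicate 1 (4.46). No difference passed limma (CHIR 1.16, adjusted p = 0.13, KO 0.81, adjusted p = 0.481, and MUT 0.48, adjusted p = 1.0). The SE of these differences (0.51) was pooled over all 8 groups, and so rests in part on the value of 1 set for missing peaks on day 2. With 2 in place of a missing peak, the CHIR difference passed limma at an adjusted p of 0.00336.

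The other regions gained in KO were Hoxb13 4015 bp upstream (7.01 and 5.86 in KO, 4.47 and 4.02 in WT, log2 difference 0.71, limma adjusted p = 0.131) and Hoxc4 43455 bp downstream (6.76 and 5.04, against 5.89 and 5.33). At the latter the KO and WT values overlapped. The 3 lost were at Hoxb9 (36358 bp upstream, log2 difference -0.57, adjusted p = 0.0805), Hoxc10 (2925 bp upstream) and Hoxa11 (7283 bp upstream).

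In MUT cells on day 3, 2 Hox regions (2.41%) were gained, the Hoxc4 region 43455 bp downstream and the Hoxd1 region, and 0 were lost. The shares of all regions were 1.89% and 1.94%. limma called 0 Hox regions in either direction, against 0.0819% higher and 0.0546% lower of all regions, and at an unadjusted p under 0.05 there were 3 higher and 0 lower. The KO, MUT and CHIR comparisons share their WT libraries, so a region low in both WT libraries enters all of them.

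The reverse treatment, Wnt inhibition in KO cells, was compared with untreated KO cells of the same lines. Both untreated KO libraries also enter the KO comparison with WT, with the opposite sign. Opposite differences in the KO and XAV comparisons are therefore not independent. With XAV, 2 Hox regions (2.41%) were gained and 5 (6.02%) lost, against 4.89% and 4.17% of all regions. Those lost were at Hoxb13 (4015 bp upstream), Hoxb3 (1619 bp upstream), Hoxb2 (1751 bp downstream), Hoxc12 (6683 bp downstream) and Hoxd1 (2668 bp upstream), and those gained at Hoxc13 (10905 bp upstream) and Hoxa7 (120 bp upstream). By limma 1 was higher and 2 lower, against 2.45% and 1.70% of all regions, with 4 and 6 at an unadjusted p under 0.05. The median log2 difference was -0.08 over the Hox regions and 0.01 over all regions.

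At Hoxb13, 4015 bp upstream, the values fell from 7.01 and 5.86 in KO to 4.19 and 3.01 with XAV (log2 difference -1.02, SE 0.23, limma adjusted p = 0.026). The Hoxc12 region fell from 6.16 and 5.12 to 3.82 and 4.23 (-0.65, SE 0.16, limma adjusted p = 0.042). The Hoxb13 region 23496 bp upstream rose from no peak to 2.81 and 3.65 (1.51, SE 0.28, limma adjusted p = 0.0105), a call lost with 2 in place of a missing peak (0.51, adjusted p = 0.267). Without KO replicate 2 or without XAV replicate 2, the number of called Hox regions fell to 1. The Hoxb13 region 4015 bp upstream lost its call without KO replicate 1 (adjusted p = 0.0513), KO replicate 2 (0.0976) or XAV replicate 2 (0.202). Hoxc12 lost its call without any 1 of the 4 libraries (adjusted p of 0.0648 to 0.227).

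From day 2 to day 3, 5 Hox regions changed state in WT cells. Gains numbered 2 (2.41%), at Hoxb8 556 bp downstream and at Hoxc10 2925 bp upstream, and losses 3 (3.61%), at Hoxb2 2963 bp downstream, Hoxc4 43455 bp downstream and Hoxd4 1592 bp downstream. The shares of all regions were 3.46% and 3.96%. limma called 0 Hox regions, against 0.169% higher and 0.696% lower of all regions, with 3 higher and 7 lower at an unadjusted p under 0.05. The largest value among them was at an intergenic region 24988 bp downstream of Hoxb1, with 4.17 and 7.82 in WT on day 2 and no peak in WT on day 3 (log2 difference -2.48, SE 0.59, limma adjusted p = 0.0863). That region had a peak in all 6 day 2 libraries (4.02 to 8.68) and in 3 of 10 day 3 libraries (2.25 to 3.06). It was named after its values were seen.

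On day 2, KO cells gained 0 Hox regions and lost 4 (4.82%), against 1.97% and 2.17% of all regions. The 4 were at Hoxb9 (20310 bp upstream), Hoxb2 (2963 bp downstream), Hoxc8 (16 bp upstream) and Hoxd4 (1592 bp downstream). limma called 0 Hox regions, against 0.0261% higher and 0.0186% lower of all regions, with 1 higher and 1 lower at an unadjusted p under 0.05.

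Genes that regulate or work with Hox factors were counted in the same way. For the CDX, cofactor and neighbour genes (Cdx1, Cdx2, Cdx4, Evx1, Evx2, Pbx2, Pbx3, Pbx4, Meis1, Meis2, Meis3, Pknox1, Pknox2 and Gbx2), 103 regions were tested. With CHIR, 17 of these were gained (16.5%) and 4 lost (3.88%), and 11 were higher (10.7%) and 11 lower (10.7%) by limma, against 11.0%, 9.02%, 9.48% and 14.0% of all regions. Of the 91 open in at least 2 libraries other than CHIR, 6 were gained and 4 lost, and 1 was higher and 11 lower by limma, against 3.07%, 9.97%, 3.37% and 15.5%. Among these 91, Evx1, which adjoins HoxA, gained 2 of 4 regions and lost 0, and Cdx1 gained 1 of 2 and lost 0. By limma, Evx1 had 0 higher and 0 lower, and Cdx1 had 0 higher and 1 lower. Cdx2 (5 regions), Cdx4 (4) and Evx2 (4) gained 0 and lost 0. The cofactor gene Pknox2 gained 1 of 17 and lost 2, and Meis1, another cofactor gene, gained 0 of 14 and lost 2. In KO against WT on day 3, 5 of 103 regions were gained (4.85%) and 1 lost (0.971%), with 2 higher (1.94%) and 0 lower by limma, against 3.92%, 4.22%, 1.83% and 1.69% of all regions.

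Of 55 regions at 7 retinoic acid genes (Rara, Rarb, Rarg, Cyp26a1, Cyp26b1, Cyp26c1 and Aldh1a2), 8 were gained (14.5%) and 5 lost (9.09%) with CHIR, and 7 were higher (12.7%) and 4 lower (7.27%) by limma, against 11.0%, 9.02%, 9.48% and 14.0% of all regions. Of the 46 open in at least 2 libraries other than CHIR, 1 was gained and 5 lost, and 1 was higher and 4 lower by limma, against the 3.07%, 9.97%, 3.37% and 15.5% above. The gained region was at Cyp26a1, which encodes a degrading enzyme and also lost 1 of its 5 regions, and the receptor gene Rara gained 0 and lost 2 of 12. At Aldh1a2, the enzyme that makes retinoic acid, 3 of 5 regions were in the set only through CHIR. The other 2 were neither gained nor lost by state, while by limma 1 of them was lower and 0 were higher. In KO against WT on day 3, 1 of 55 was gained (1.82%) and 3 lost (5.45%), with 1 higher (1.82%) and 0 lower by limma, against 3.92%, 4.22%, 1.83% and 1.69% of all regions.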

How the data were processed

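Omni-ATAC libraries of 8 groups of 2 were analysed. Per the paper's methods, the authors used the ENCODE ATAC-seq pipeline on mm10 (GRCm38.p6). The versions of aligner and peak caller were not given in the sources used here. Per the submitters' notes, other tools were DiffBind 3.0.15, HOMER 2 and deepTools 3.4.3. The authors deposited a peak list per library, down to a −log10 p of 2, with the fold enrichment at the summit, a ratio to local background. The −log10 p and −log10 q values as deposited served to rank peaks within a library. Replicate 2 of each day 2 group is marked as merged. Read depth is unknown, and no interval that needs it is given. The 2 deposited lists of differential regions were not used here.

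Peaks sharing start and end were collapsed (median 160817 distinct intervals per library), and the 50000 with the highest −log10 p were kept. Windows of 150 bp on either side of the summits were merged and kept when held by at least 2 libraries, with a median width of 342 bp. Of 756 kept Hox intervals, 728 lay in a consensus region. Regions were assigned by the nearest TSS of a protein-coding gene in GENCODE M21 within 100 kb, with upstream and downstream taken along transcription. Paralog class follows the assigned gene and not the coordinate. Alternative start sites placed a Hoxa3 region between those of Hoxa5 and Hoxa7, and Hoxd3 regions between those of Hoxd9 and Hoxd4. A gained region was open in 2 of 2 libraries of one group and 0 of 2 of the group it was compared with, and a lost region the reverse.

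Fold enrichment of the strongest peak in a region was set to 1 where a library had no peak (93.4% of Hox values had one), log2 transformed and centred per library on the median of 27051 regions open in all libraries. limma 3.58.1 (R 4.3.3) fitted the 8 groups over all 80585 regions with a trended prior, Benjamini-Hochberg adjustment and a threshold of 0.05. The procedure was tested on simulated data. The p-values rest on the spread between the cell lines of a group, pooled over all 8 groups and moderated by the prior. They do not measure the spread within the groups compared alone. Where peaks were missing, that spread rests in part on the value of 1 set in their place. Cell line, which the labels give, pairs libraries across days and XAV treatment, and deviations of replicate 1 libraries of a line correlated at 0.0089 to 0.167. Other steps used Python 3.11.15, numpy 2.4.6, pandas 2.3.3 and matplotlib 3.10.9.

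Members, gene lists, motifs and tests were chosen with earlier results of these data known. A result at 1 listed gene is not reported here. Named were regions gained, lost or called by limma (up to 10 per comparison by size), the regions open in every library and members with none. Alternatives were the number of kept intervals, the overlap, the consensus minimum, the start sites used, normalisation, peaks in every library, cell line as a block and leaving out each library. Setting missing peaks to 2, and keeping only regions open in at least 2 libraries other than CHIR, were added after the data were seen. In the other comparisons, no called Hox region owed its place in the consensus to the group in which it was open.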

Additional observations from a re-analysis of the deposited data

Results flagged for a closer look

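The difference between KO and WT cells at the Hoxb9 region 36358 bp upstream of the TSS changed between the days by the limma interaction term. On day 2 the fold enrichment was 10.2 and 8.35 in KO and 6.59 and 7.14 in WT, and on day 3 it was 5.47 and 3.96 in KO and 7.96 and 7.00 in WT. The change in the log2 difference was -1.10 (SE 0.22, limma adjusted p = 0.0405), and it was the 1 Hox region that passed, against 0.737% of all regions higher and 0.325% lower. The other groups lay at 6.42 and 9.46 (MUT day 2), 6.46 and 5.49 (MUT day 3), 6.38 and 7.34 (XAV) and 8.45 and 9.35 (CHIR). The adjusted p was 0.234 without centring, 0.0599 with missing peaks at 2 and 0.609 with peaks in every library compared, and 0.0281 to 0.154 with 1 library left out. It stayed under 0.05 in 1 of those 8 fits, the one without KO day 3 replicate 1. The same term for MUT passed at 0 Hox regions, and at 0 of all regions, by limma, with 4 higher and 1 lower Hox regions at an unadjusted p under 0.05.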

How the results depend on the processing

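The number of Hox regions was 37 with 30000 intervals per library, 177 with 80000 and 247 with every peak of −log10 q of at least 2. Regions gained or lost with CHIR against WT (16) then numbered 9, 30 and 31. With 80000 intervals the counts were 12 for KO on day 3 (6 as reported), 10 for MUT (2), 14 for WT day 3 against day 2 (5), 12 for KO on day 2 (4) and 16 for CHIR against the other day 3 groups (8). With the q threshold they were 16 for KO on day 3, 21 for XAV (7), 29 for WT day 3 against day 2, 9 for KO on day 2 and 13 for CHIR against the other groups. Leaving out 1 library asks for fewer open libraries, and gave 17 to 24 for CHIR against WT, 10 to 13 for KO on day 3, 8 to 11 for MUT, 12 to 20 for XAV, 9 to 15 for WT by day and 7 to 13 for KO on day 2. Requiring 1 library for the consensus, a larger overlap, or gene start sites alone moved no count by over 1.5 times.

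Among regions open in at least 2 libraries other than CHIR, 9 were gained or lost with CHIR against WT and 1 against the other day 3 groups, and limma called 3 and 12.

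Regions changed by limma with CHIR against WT (7) numbered 11 with missing peaks at 2 and 2 among regions with a peak in every library compared. For KO on day 3 (2) both settings gave 0, for the KO interaction (1) both and no centring gave 0, for XAV (3) no centring gave 1 and peaks in every library 0, for WT by day (0) missing peaks at 2 gave 1, the Hoxb1 region 24988 bp downstream, and for CHIR against the other groups (18) peaks in every library gave 8. Leaving out 1 library gave 5 to 8, 0 to 3, 0 to 1, 1 to 3 and 8 to 20 for CHIR, KO, the interaction, XAV and CHIR against the other groups, and 0 for the rest. With cell line as a replicate block (correlation 0.0695) the counts were 7, 2, 0, 3, 0, 0, 18 and 1, as without pairing. Of the comparisons at single named regions under another setting, 422 kept direction and side of the threshold, 50 lost the call, 6 gained one and 0 reversed. The cause was not tested.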
